A study of Vitis vinifera with 36 samples.

Results

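The route to green, leafy berry aroma was followed through 8 grapevine loci. They are the lipoxygenases LOXO (VIT_209s0002g01080) and LOXA (VIT_206s0004g01510), 5 loci numbered beside LOXA on chromosome 6 (VIT_206s0004g01450, VIT_206s0004g01460, VIT_206s0004g01470, VIT_206s0004g01480 and VIT_206s0004g01500), and the hydroperoxide lyase HPL1 (VIT_212s0059g01060). The loci were picked by identifier, with earlier results of these data known. Of the 8, 7 were among the 28119 loci of the deposited tables, and VIT_206s0004g01500 was not analysed here. Counts were high enough to test 5 of the 8, among 19736 genes tested in all: LOXO, LOXA, HPL1, VIT_206s0004g01450 and VIT_206s0004g01480. The names LOXO, LOXA and HPL1 came with the list of loci. The tables themselves hold identifiers only, so no role is given here to the smaller chromosome 6 loci.

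Plant lipoxygenases add oxygen to polyunsaturated fatty acids from membrane lipids and so make fatty acid hydroperoxides. Hydroperoxide lyase cuts these into short, volatile aldehydes, which can be reduced to alcohols and give crushed leaves and unripe berries their grassy smell. The same hydroperoxides also feed another branch, opened by allene oxide synthase, that leads to jasmonate hormones.

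RNA was sequenced from deseeded berries, skin and flesh together, of the cultivars Victoria and Muscat Superior (Vitis vinifera). Each cultivar gave a summer crop and a winter crop in a southern Chinese vineyard where vines bear a harvest in each season, and the series was made to compare these crops. Berries were taken at 3 points of the E-L scale of grapevine development: E-L 35 (softening and colouring begin), E-L 36 (intermediate sugar) and E-L 38 (ripe for harvest). The 12 groups held 3 biological replicates each, and RNA of a replicate came from 50 berries. All vines were 7 years old in 2014, stood under a rain shelter on a rootstock that is not known, and were pruned and forced with hydrogen cyanamide for either crop. For the winter crop they were also stripped of their leaves by hand. The crops were sampled in different seasons, so season, date, the stripping of leaves and any batch cannot be told apart from the crop. Markers of seed, xylem or epidermis could not be looked up because the identifiers carry no names. In such bulk tissue, fewer cells of a type and less RNA per cell cannot be told apart either.

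Libraries held 5624449 to 18606068 estimated counts. Levels are given as CPM, counts scaled to a common library size and normalised for library composition, and 3 counts, the floor used here, stood for 0.161 CPM in the deepest and 0.533 CPM in the shallowest library, for counting error only. Among the 36 libraries, 2 lay closer to another group than to their own. Replicate 1 of summer Victoria at E-L 36 correlated at 0.947 with its own group and at 0.964 with summer Victoria at E-L 38 (mean Pearson r over genes, log2 CPM). Replicate 1 of summer Muscat Superior at E-L 36 correlated at 0.956 with its own group and at 0.966 with the E-L 38 group. In 8 of the 36 replicate pairs, all from winter, the counts were nearly the same, with a chi-square of 1.455 to 1.89 for each degree of freedom against 2.42 to 53.4 in the other 28. Every pair of winter Victoria at E-L 36 was among them, as was every pair of the winter crop of Muscat Superior at E-L 35, so the spread in those groups may be technical and p-values that rest on it may be too small.

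Per kilobase of transcript and scaled to library size (FPKM), HPL1 was the most abundant of the members, with a mean of 279.4 over the 36 libraries. LOXA followed at 170.0 FPKM and LOXO at 19.0 FPKM. These means stood at the 99.2, 98.5 and 81.4 percentile of the 28119 genes. VIT_206s0004g01480 averaged 0.863 FPKM and VIT_206s0004g01450 averaged 0.276 FPKM. VIT_206s0004g01460 and VIT_206s0004g01470 had counts in 10 of 36 libraries each, never above 5.62 counts and 3 counts, and were not tested. LOXA held 98.4% to 99.96% of the FPKM summed over the chromosome 6 members in a library.

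LOXO, a lipoxygenase, was low in winter berries past veraison. Its highest group mean was 6.73 times its lowest, against 2.96 times for LOXA and 2.07 times for HPL1. Summer Victoria had LOXO levels of 131.2, 118.5 and 150.7 CPM at E-L 35, 71.6, 186.1 and 147.5 CPM at E-L 36, and 113.1, 82.9 and 166.2 CPM at E-L 38. Winter Victoria had 39.9, 49.6 and 128.8 CPM at E-L 35, 26.5, 27.3 and 27.1 CPM at E-L 36, and 21.7, 17.8 and 20.7 CPM at E-L 38. The crops did not overlap at E-L 36 or E-L 38, while at E-L 35 winter replicate 3 lay within the summer range. Summer Muscat Superior had 35.3, 38.6 and 37.4 CPM at E-L 35, 185.3, 83.2 and 107.2 CPM at E-L 36, and 75.4, 121.0 and 65.5 CPM at E-L 38. Winter Muscat Superior had 43.6, 43.7 and 37.4 CPM at E-L 35, 24.03, 24.2 and 17.3 CPM at E-L 36, and 43.6, 34.1 and 25.9 CPM at E-L 38. Here too every winter library lay below every summer library at the later 2 stages, and at E-L 35 the crops overlapped.

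**Figure D1:**
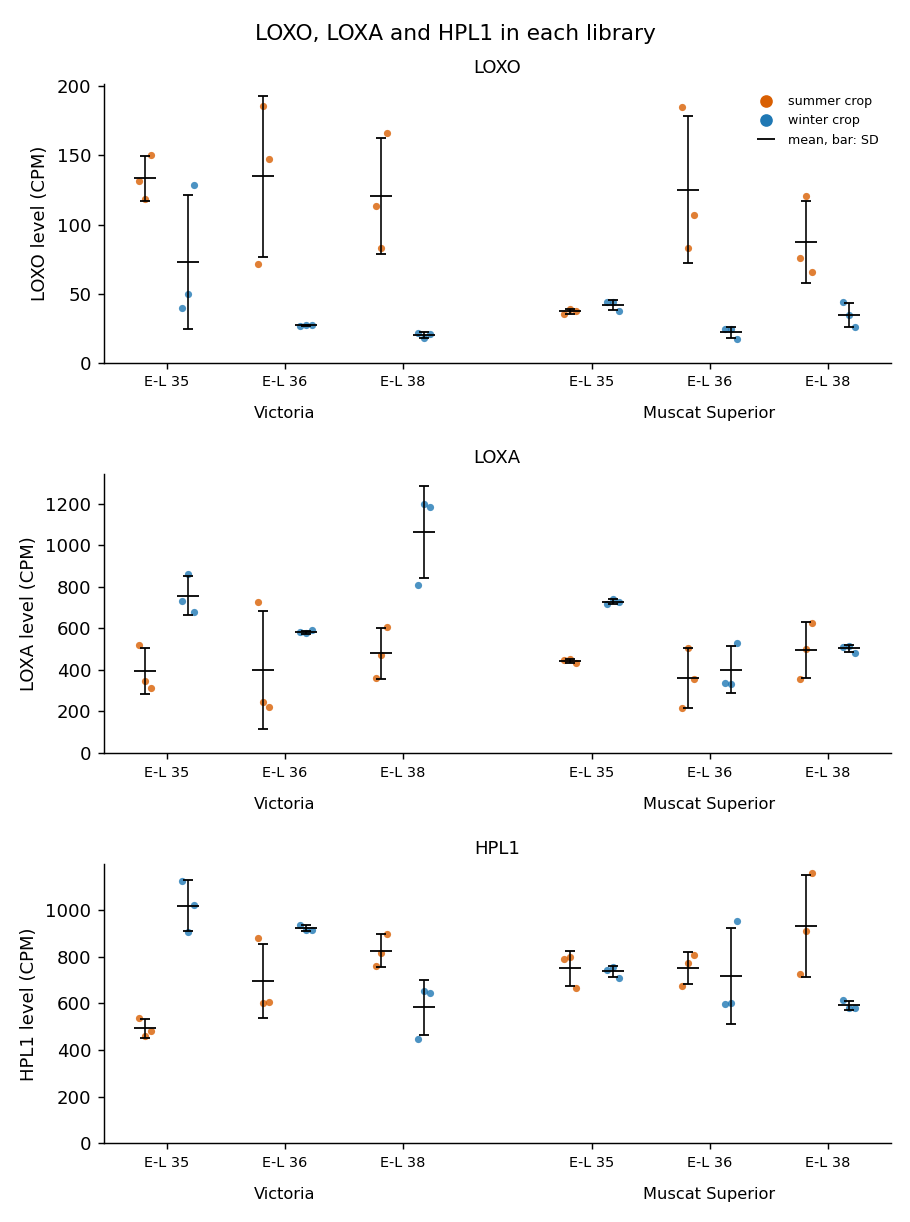
Levels of LOXO, LOXA and HPL1 in CPM for 12 groups of 3 libraries, by cultivar, stage (E-L 35, 36 and 38) and crop; points are libraries and bars are means with SD. Winter LOXO at E-L 36 and E-L 38 lay between 17.3 and 43.6 CPM, below every summer library of the same cultivar and stage.

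The crop was tested with edgeR's quasi-likelihood F test on all genes, and a gene was called at a Benjamini-Hochberg adjusted p below 0.05. LOXO was called lower in winter at E-L 36 in Victoria (27.0 ± 0.408 against 135.0 ± 58.3 CPM, SD, n = 3), by a log2 fold change of -2.32 ± 0.37 (SE, adjusted p = 8.99e-06, edgeR). At E-L 38 in Victoria it was lower by -2.59 ± 0.38 (20.1 ± 2.03 against 120.7 ± 42.2 CPM, adjusted p = 1.97e-06, edgeR). In Muscat Superior the log2 fold change was -2.51 ± 0.37 at E-L 36 (21.9 ± 3.92 against 125.2 ± 53.4 CPM, adjusted p = 5.49e-06, edgeR). At E-L 38 it was -1.34 ± 0.36 (34.6 ± 8.86 against 87.3 ± 29.6 CPM, adjusted p = 0.00346, edgeR). These 4 calls held under every alternative setting and with any single library left out.

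At E-L 35 the crop difference of LOXO was smaller and rested on single libraries. In Victoria it was -0.88 ± 0.35 (72.7 ± 48.8 in winter against 133.5 ± 16.2 CPM in summer, adjusted p = 0.0456, edgeR). The call was lost without summer replicate 1 (-0.88), 2 (-0.95) or 3 (-0.77) and without winter replicate 1 (-0.57) or 2 (-0.66), and the difference grew to -1.58 without winter replicate 3. Only 4 of 9 other alternatives called it. In Muscat Superior LOXO was not called at E-L 35, where it had 41.6 ± 3.63 CPM in winter and 37.1 ± 1.70 CPM in summer. The crop effect in Muscat Superior minus that in Victoria was 1.04 (adjusted p = 0.153, edgeR) at E-L 35 and 1.25 (adjusted p = 0.0944, edgeR) at E-L 38, neither called. The former was 1.74 and called without winter Victoria replicate 3 (adjusted p = 0.0107, edgeR), and the latter 1.55 and called without summer Muscat Superior replicate 2 (adjusted p = 0.0498, edgeR).

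LOXA, the abundant lipoxygenase, was higher in winter in Victoria at E-L 35 and E-L 38. Summer Victoria had LOXA levels of 520.7, 345.7 and 313.8 CPM at E-L 35, 724.9, 243.5 and 223.2 CPM at E-L 36, and 360.9, 469.4 and 607.2 CPM at E-L 38. Winter Victoria had 732.5, 859.4 and 679.4 CPM at E-L 35, 579.8, 575.5 and 589.1 CPM at E-L 36, and 806.1, 1198 and 1181 CPM at E-L 38. All 3 winter libraries were above all 3 summer libraries at E-L 35 and E-L 38, but summer replicate 1 exceeded winter at E-L 36. Summer Muscat Superior had 445.1, 453.1 and 431.7 CPM at E-L 35, 214.7, 504.8 and 356.7 CPM at E-L 36, and 356.4, 498.5 and 625.9 CPM at E-L 38. Winter Muscat Superior had 715.3, 738.9 and 728.5 CPM at E-L 35, 336.9, 333.3 and 530.9 CPM at E-L 36, and 510.6, 514.8 and 482.6 CPM at E-L 38. The crops of Muscat Superior were apart at E-L 35 and overlapped at the other 2 stages.

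The winter rise of LOXA in Victoria was 1.15 ± 0.33 on the log2 scale at E-L 38 (1062 ± 222 against 479 ± 123 CPM, SD, n = 3, adjusted p = 0.00428, edgeR), called under every alternative and with any library left out. At E-L 35 it was 0.94 ± 0.33 (757 ± 92.5 against 393 ± 111 CPM, adjusted p = 0.0215, edgeR), and the call was lost without summer replicate 2 (0.87) or 3 (0.82) or winter replicate 2 (0.85). At E-L 36 the difference of 0.55 was not called (adjusted p = 0.162, edgeR), but it was 1.31 and called without summer replicate 1, the library nearest to another group (adjusted p = 0.000408, edgeR). Without summer replicate 2 or 3 it was 0.29 or 0.26. In Muscat Superior no LOXA difference between crops was called: it was 0.71 at E-L 35 (728 ± 11.8 against 443 ± 10.8 CPM, adjusted p = 0.133, edgeR). That value passed in 2 of 9 alternatives: in a fit of the 6 libraries compared alone, whose winter members are among the near-identical ones (adjusted p = 7.95e-12, edgeR), and without replicate 1 of both later summer Victoria groups (0.71, adjusted p = 0.0313, edgeR). The crop effect of LOXA in Muscat Superior minus that in Victoria was called at no stage. It was -0.23 at E-L 35 (adjusted p = 0.784, edgeR), -0.39 at E-L 36 (adjusted p = 0.605, edgeR) and -1.12 at E-L 38 (adjusted p = 0.0947, edgeR).

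HPL1, the lyase that makes the aldehydes, was higher in winter than in summer Victoria at veraison and lower at harvest. Summer Victoria had HPL1 levels of 537.2, 458.6 and 481.7 CPM at E-L 35, 880.3, 603.1 and 605.9 CPM at E-L 36, and 759.9, 818.3 and 899.9 CPM at E-L 38. Winter Victoria had 1125, 907.4 and 1024 CPM at E-L 35, 937.4, 913.8 and 916.6 CPM at E-L 36, and 447.5, 655.1 and 644.9 CPM at E-L 38. The crops did not overlap at any of the 3 stages, with winter on top at E-L 35 and E-L 36 and summer on top at E-L 38. Summer Muscat Superior had 791.6, 798.6 and 664.4 CPM at E-L 35, 673.3, 774.5 and 806.4 CPM at E-L 36, and 724.2, 910.2 and 1161 CPM at E-L 38. Winter Muscat Superior had 743.1, 758.3 and 711.0 CPM at E-L 35, 596.2, 601.8 and 954.3 CPM at E-L 36, and 615.4, 579.4 and 582.3 CPM at E-L 38. Its crops overlapped at E-L 35 and E-L 36, and at E-L 38 every winter library was below every summer library.

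HPL1 was higher in winter Victoria at E-L 35 by a log2 fold change of 1.05 ± 0.17 (1019 ± 109 against 493 ± 40.4 CPM, SD, n = 3, adjusted p = 1.9e-05, edgeR), with any single library left out too. At E-L 36 the rise was 0.41 ± 0.17 (923 ± 12.9 against 697 ± 159 CPM, adjusted p = 0.0479, edgeR). That call was lost without summer replicate 2 or 3 (0.31 each) and without winter replicate 1 (0.39), 2 (0.41) or 3 (0.41). Only 3 of 9 other alternatives called it. At E-L 38 HPL1 was lower in winter by -0.50 ± 0.17 (583 ± 117 against 826 ± 70.3 CPM, adjusted p = 0.0139, edgeR), a call lost without summer replicate 3 (-0.44) or winter replicate 1 (-0.35). In Muscat Superior HPL1 was lower in winter at E-L 38 by -0.65 ± 0.17 (592 ± 20.0 against 932 ± 219 CPM, adjusted p = 0.00253, edgeR), a call kept with any library left out. At E-L 35 and E-L 36 in Muscat Superior it was not called. The crop effect at E-L 35 differed between the cultivars by -1.08 ± 0.24 (Muscat Superior minus Victoria, adjusted p = 0.00252, edgeR). Summing near-identical libraries left 1 library of winter Muscat Superior at E-L 35. The difference was then again -1.08 but was not called.

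**Figure D2:**
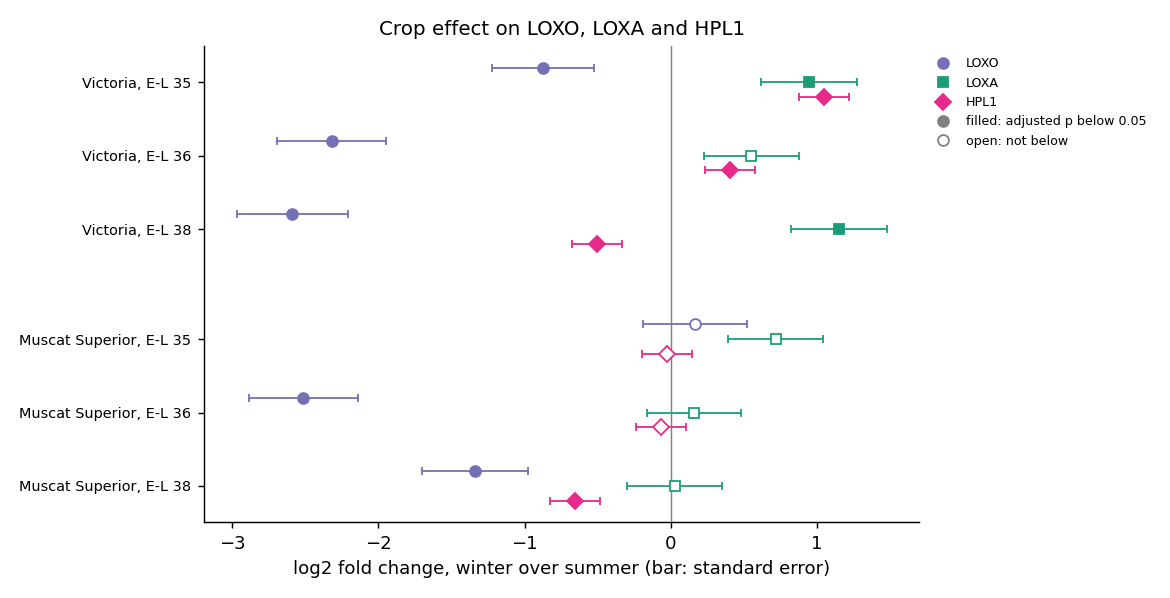
Log2 fold change of winter over summer (x axis) for LOXO, LOXA and HPL1 in each cultivar and stage (y axis), 3 against 3 libraries. Bars are the standard error from the edgeR fit of all 36 libraries, so they pool the spread of all 12 groups. Filled symbols have an adjusted p below 0.05 in that fit. LOXO lay between -2.59 and -1.34 at E-L 36 and E-L 38, and HPL1 in Victoria moved from 1.05 at E-L 35 to -0.50 at E-L 38.

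The 2 smaller chromosome 6 loci that were tested differed mainly between cultivars. VIT_206s0004g01450 had counts in 18 of 18 Victoria libraries, at 0.235 to 4.12 CPM with a median of 1.22 CPM. In Muscat Superior it had counts in 12 of 18 libraries, at 0 to 0.537 CPM with a median of 0.176 CPM and never more than 5 counts. VIT_206s0004g01480 showed the opposite order. It had counts in 18 of 18 Muscat Superior libraries, at 1.40 to 6.84 CPM with a median of 3.45 CPM, and in 15 of 18 Victoria libraries, at 0 to 1.49 CPM with a median of 0.334 CPM. Of the Muscat Superior libraries, 16 lay above the highest Victoria library in VIT_206s0004g01480. Counts were often fractional, as estimated counts are where reads are shared among loci, and which loci shared reads was not tested. Of the values above 0, 46.7% for VIT_206s0004g01450 and 78.8% for VIT_206s0004g01480 were whole numbers. For LOXA the share was 86.1%, and for LOXO and HPL1 it was 100%. The split of reads among the chromosome 6 loci is therefore uncertain, and whether the loci differ in sequence between cultivars in a way that moves reads was not tested.

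**Figure D3:**
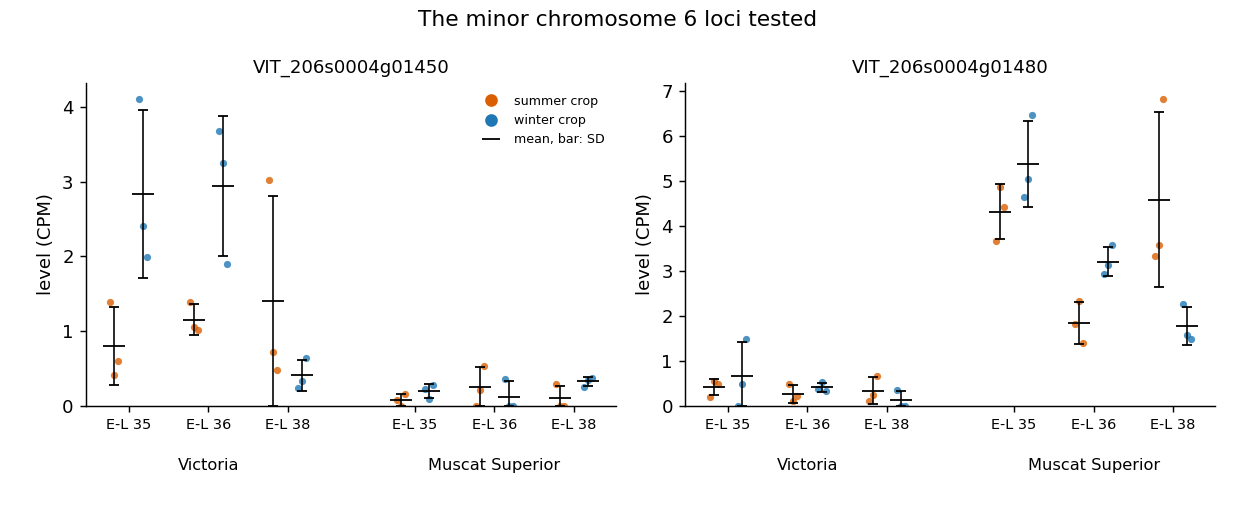
Levels of VIT_206s0004g01450 and VIT_206s0004g01480 in CPM by cultivar, stage and crop; points are libraries and bars are means with SD, cut at 0 below. VIT_206s0004g01450 reached 4.12 CPM in Victoria and 0.537 CPM in Muscat Superior, and VIT_206s0004g01480 reached 1.49 CPM in Victoria and 6.84 CPM in Muscat Superior.

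Muscat Superior was compared with Victoria within each crop and stage, and fitted fold changes of these 2 loci depend on the prior count because 1 cultivar was near 0. VIT_206s0004g01480 was called higher in Muscat Superior in 6 of 6 such comparisons, with log2 fold changes of 2.67 to 3.84 and adjusted p from 6.75e-06 to 0.00217 (edgeR). The size rested on the Victoria library with the most counts of its group: it was 4.74 in place of 3.07 in winter at E-L 35 without winter Victoria replicate 3, and 7.29 in place of 3.84 at E-L 38 without winter Victoria replicate 1. VIT_206s0004g01450 was called lower in Muscat Superior in 5 of the 6, by -2.17 to -4.46 with adjusted p from 0.000157 to 0.0437 (edgeR). In the remaining one, winter at E-L 38, it had 0.403 ± 0.214 CPM in Victoria and 0.324 ± 0.0636 CPM in Muscat Superior. In summer at E-L 36 its change was -2.17, and the call was lost without Victoria replicate 1 (-2.01), 2 (-2.22) or 3 (-2.25) or Muscat Superior replicate 1 (-1.63) or 2 (-2.03), while it was -3.32 without Muscat Superior replicate 3. In summer at E-L 38 the change of -3.78 lost its call without Victoria replicate 1 (-2.51) and was -7.01 without Muscat Superior replicate 1. In winter at E-L 36 the change of -4.46 was -8.03 without Muscat Superior replicate 1.

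The larger members differed between cultivars in some groups. LOXO was lower in Muscat Superior in summer at E-L 35, with 37.1 ± 1.70 against 133.5 ± 16.2 CPM (log2 fold change -1.85 ± 0.36, adjusted p = 0.000148, edgeR), and was called in 0 of the other 5 comparisons. HPL1 was higher in Muscat Superior in summer at E-L 35 by 0.61 ± 0.17 (752 ± 75.5 against 493 ± 40.4 CPM, adjusted p = 0.0046, edgeR). In winter at E-L 35 it was lower by -0.47 ± 0.17 (737 ± 24.1 against 1019 ± 109 CPM, adjusted p = 0.0382, edgeR). That last call was lost without winter Victoria replicate 1 (-0.39) or 3 (-0.46), and without winter Muscat Superior replicate 1 (-0.47), 2 (-0.49) or 3 (-0.44). LOXA was lower in Muscat Superior in winter at E-L 38, with 503 ± 17.5 against 1062 ± 222 CPM (-1.08 ± 0.33, adjusted p = 0.0141, edgeR), a call lost without winter Victoria replicate 2 (-0.984) or 3 (-0.995). Of the 5 tested members, 4, 2 and 2 were called between cultivars in summer at E-L 35, 36 and 38, where 44.6%, 38.0% and 41.3% of all tested genes were called. In winter 3, 2 and 2 were called, against 30.1%, 35.0% and 27.9% of all genes.

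The smaller loci also differed between crops. In Victoria at E-L 35, VIT_206s0004g01450 had 4.12, 2.41 and 1.99 CPM in winter and 1.39, 0.408 and 0.598 CPM in summer (log2 fold change 1.83 ± 0.62, adjusted p = 0.0193, edgeR). The groups did not overlap, and the call was lost without summer replicate 2 (1.52) or 3 (1.68) or winter replicate 1 (1.45). At E-L 36 its change of 1.34 (adjusted p = 0.0763, edgeR) and at E-L 38 its change of -1.79 (adjusted p = 0.0517, edgeR) were not called. The E-L 38 value became -2.08 and -2.21 and was called without summer replicate 2 or 3, and was -0.52 without summer replicate 1. In Muscat Superior at E-L 38, VIT_206s0004g01480 had 2.27, 1.56 and 1.49 CPM in winter and 3.33, 3.59 and 6.84 CPM in summer (-1.39 ± 0.48, adjusted p = 0.0186, edgeR). Every winter library was below every summer library, and the call was lost without summer replicate 3 (-0.98) or winter replicate 2 (-1.31) or 3 (-1.29).

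Counted over the 5 tested members, 4 were called between crops in Victoria at E-L 35, where 42.1% of all tested genes were called. At E-L 36 there were 2 against 50.7%, and at E-L 38 there were 3 against 54.3%. In Muscat Superior 0 of 5 were called at E-L 35, where 17.6% of all genes were called. At E-L 36 there was 1 against 42.6%, and at E-L 38 there were 3 against 45.1%. The median log2 fold change of the 5 members by stage was 0.95, 0.50 and -1.49 in Victoria. In Muscat Superior it was 0.32, -0.067 and -0.65, while that of all tested genes lay between -0.035 and 0.0034. The values 0.50, -1.49 and 0.32 were those of VIT_206s0004g01480, which was called in none of these comparisons. In Victoria at E-L 38 that locus had 0.117 CPM in winter and 0.333 CPM in summer. There LOXA changed by 1.15, HPL1 by -0.50 and LOXO by -2.59, so the median does not describe a shift shared by the members. With 5 members and so many genes called in all, these counts describe the members and set nothing apart.

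Ripening was then followed within each crop, as an early step from E-L 35 to E-L 36 and a late step from E-L 36 to E-L 38. In winter Victoria, LOXO fell at the early step by -1.43 ± 0.37 (from 72.7 ± 48.8 to 27.0 ± 0.408 CPM, adjusted p = 0.00241, edgeR). Without winter replicate 3 at E-L 35, the library with 128.8 CPM, the change was -0.72 and was not called (adjusted p = 0.0929, edgeR). It was not called either with near-identical libraries summed (-1.41), which left 1 library at E-L 36. In summer Muscat Superior, LOXO rose at the early step by 1.75 ± 0.36 (from 37.1 ± 1.70 to 125.2 ± 53.4 CPM, adjusted p = 0.000807, edgeR), a call kept with any library left out. In winter Muscat Superior the early change of LOXO was -0.92 and just missed the threshold (adjusted p = 0.0501, edgeR), and it was called in 5 of 9 alternatives.

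HPL1 rose at the early step in summer Victoria by 0.50 ± 0.17 (from 493 ± 40.4 to 697 ± 159 CPM, adjusted p = 0.0187, edgeR). The call was lost without replicate 1 at E-L 36 (0.30) or replicate 2 at E-L 35 (0.46). In winter Victoria HPL1 fell at the late step by -0.66 ± 0.17 (from 923 ± 12.9 to 583 ± 117 CPM, adjusted p = 0.00701, edgeR). That call was lost without replicate 1 at E-L 38 (-0.50) or with near-identical libraries summed (-0.75). Summing left 1 library at E-L 36 and 2 at E-L 38. VIT_206s0004g01450 fell at the same step by -2.82 ± 0.74 (from 2.95 ± 0.937 to 0.403 ± 0.214 CPM, adjusted p = 0.00774, edgeR). It was not called with near-identical libraries summed (-2.90). LOXA had 581.5 ± 6.98 CPM before this step and 1062 ± 222 CPM after it, a change of 0.87 that was not called (adjusted p = 0.0632, edgeR) but was called in 5 of 9 alternatives, DESeq2 among them (adjusted p = 0.035). Over the 9 and the libraries left out in turn its adjusted p ran from 0.00436 to 0.565. At harvest the winter berries of Victoria had the highest mean LOXA and the lowest mean HPL1 of their 3 stages.

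LOXA fell at the early step in winter Muscat Superior by -0.86 ± 0.33 (from 728 ± 11.8 to 400.4 ± 113 CPM, adjusted p = 0.0392, edgeR). The call was lost without E-L 35 replicate 1 (-0.88), 2 (-0.85) or 3 (-0.86), and without E-L 36 replicate 1 or 2 (-0.75 each). It was also lost with near-identical libraries summed (-0.75), which left 1 library at E-L 35 and 2 at E-L 36. In summer Victoria the LOXA change depended on replicate 1 at E-L 36, whose LOXA level of 724.9 CPM stood against 243.5 and 223.2 CPM in the other replicates. With it the early change was 0.015 (adjusted p = 0.979, edgeR) and the late change 0.27 (adjusted p = 0.871, edgeR). Without it LOXA fell at the early step (-0.75, adjusted p = 0.0308, edgeR) and rose at the late step (1.04, adjusted p = 0.0235, edgeR). The early change was also below 0 without E-L 35 replicate 2 (-0.07) or 3 (-0.12), and the late change was -0.016 without E-L 36 replicate 3, none of them called. The early change of VIT_206s0004g01480 in summer Muscat Superior was -1.22 and was not called (adjusted p = 0.0627, edgeR), though 4 of 9 alternatives called it.

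Of the 5 tested members, 1 was called at the early step in each cultivar and crop, against 43.0% of all tested genes in summer Victoria, 43.2% in winter Victoria, 23.0% in summer Muscat Superior and 36.6% in winter Muscat Superior. At the late step 2 were called in winter Victoria, where 17.9% of all genes were called. At that step 0 members were called in summer Victoria, summer Muscat Superior and winter Muscat Superior, against 0.233%, 2.59% and 25.4% of all genes.

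The change from E-L 35 to E-L 38 differed between crops for several members. In Victoria the winter change minus the summer change was -1.55 ± 0.24 for HPL1 (adjusted p = 8.55e-06, edgeR): the mean went from 1019 to 583 CPM in winter and from 493 to 826 CPM in summer. This difference was called in every alternative and with any library left out. For LOXO in Victoria it was -1.71 ± 0.51 (adjusted p = 0.00768, edgeR), and -1.01 and not called without winter replicate 3 at E-L 35 (adjusted p = 0.0767, edgeR). For VIT_206s0004g01450 it was -3.62 ± 0.99 (adjusted p = 0.00406, edgeR), and -2.35 and not called without summer replicate 1 at E-L 38 (adjusted p = 0.0775, edgeR). These 3 of 5 members called stood against 42.8% of all tested genes.

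In Muscat Superior the same difference was -1.50 ± 0.51 for LOXO (adjusted p = 0.0277, edgeR). The call was lost without summer replicate 1 at E-L 35 (-1.47) or 2 at E-L 38 (-1.20), and without winter replicate 1 (-1.47) or 2 (-1.47) at E-L 35 or 3 at E-L 38 (-1.33). For VIT_206s0004g01480 it was -1.72 ± 0.65 (adjusted p = 0.048, edgeR). That call was lost without any of 10 of the 12 libraries left out in turn, with values from -1.91 to -1.30: summer E-L 35 replicate 1 (-1.61), 2 (-1.81) and 3 (-1.74), summer E-L 38 replicate 3 (-1.30), winter E-L 35 replicate 1 (-1.81), 2 (-1.76) and 3 (-1.56), and winter E-L 38 replicate 1 (-1.91), 2 (-1.63) and 3 (-1.60). For HPL1 it was -0.63 and was not called (adjusted p = 0.0529, edgeR), but 6 of 9 alternatives called it, and it was -0.78 and called without summer replicate 1 at E-L 38 (adjusted p = 0.0172, edgeR). Here 2 of 5 members were called against 27.1% of all genes. For the difference of the crop effect between cultivars, 1 of 5 members (HPL1) was called at E-L 35 against 18.1% of all genes, and 0 of 5 at E-L 36 and E-L 38 against 18.7% and 16.8%.

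Levels per kilobase let the transcripts of these loci be set against each other within a library. Amounts and activities of the enzymes are not in these data. LOXA exceeded LOXO in 36 of 36 libraries. In Victoria the ratio of LOXA to LOXO FPKM averaged 3.53 ± 1.12, 5.10 ± 5.95 and 4.93 ± 1.55 by stage in summer (SD, n = 3) and 16.1 ± 8.61, 25.5 ± 0.507 and 63.6 ± 18.1 in winter. Every winter library of Victoria at E-L 36 and E-L 38 had a ratio of at least 24.9, above every summer library. In Muscat Superior the ratio was 14.1 ± 0.678, 4.16 ± 2.91 and 7.25 ± 3.52 in summer and 20.8 ± 1.96, 23.0 ± 11.4 and 17.9 ± 4.10 in winter, with winter above summer in every library of each stage.

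HPL1 exceeded LOXA per kilobase in 33 of 36 libraries. The exceptions were the 3 winter Victoria libraries at E-L 38, with HPL1 to LOXA ratios of 0.660 to 0.671. Replicates 2 and 3 of that group were near-identical. In the other 11 groups the mean ratio was 1.22 to 2.79. These ratios are descriptions of levels already compared, with no test of their own.

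**Figure D4:**
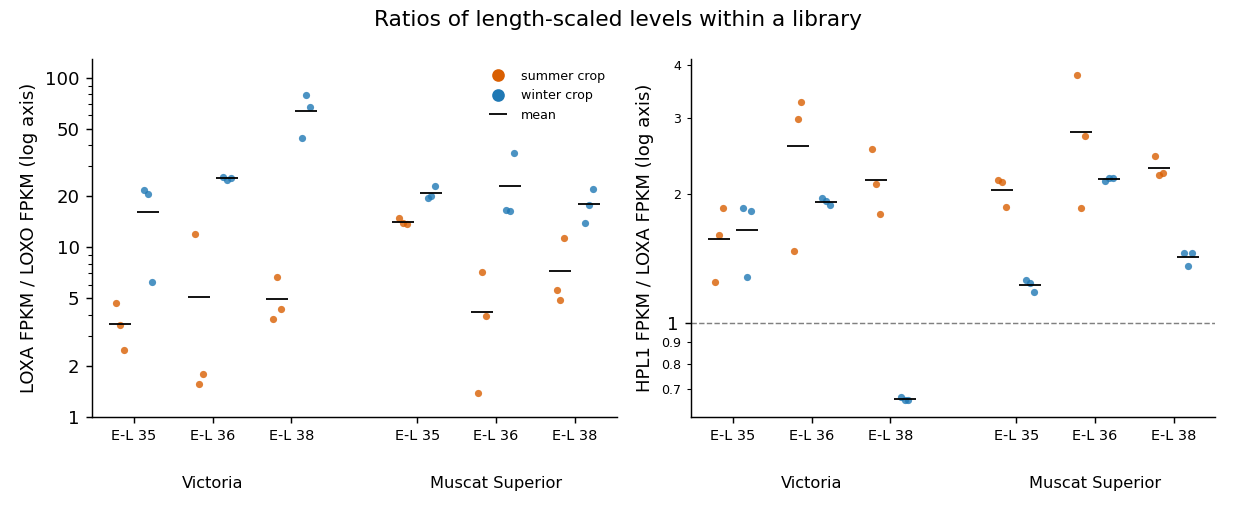
Ratio of FPKM within a library, LOXA over LOXO (left) and HPL1 over LOXA (right), on log axes by cultivar, stage and crop; points are libraries and bars are means. The winter Victoria libraries at E-L 38 reached 43.9 to 79.5 on the left and were the only ones below 1 on the right, at 0.660 to 0.671.

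Ordered by group mean, LOXO ran from 20.1 CPM in winter Victoria at E-L 38 to 135.0 CPM in summer Victoria at E-L 36, a ratio of 6.73. Of the 11 pairs of neighbours in that order, 10 overlapped, and the pair that did not was winter Victoria above winter Muscat Superior at E-L 36. LOXA ran from 359 CPM in summer Muscat Superior at E-L 36 to 1062 CPM in winter Victoria at E-L 38, a ratio of 2.96, with 9 of 11 pairs overlapping. HPL1 ran from 493 CPM in summer Victoria to 1019 CPM in winter Victoria, both at E-L 35, a ratio of 2.07, with 10 of 11 pairs overlapping. The highest and the lowest HPL1 groups were thus the winter and summer crops of 1 cultivar at 1 stage.

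Within groups, replicates high in LOXA tended to be high in HPL1 and low in LOXO. Deviations from the group means over the 36 libraries correlated at 0.77 for LOXA with HPL1 and at -0.53 for LOXA with LOXO (Pearson r, log2 CPM), and both correlations describe libraries that share depth and normalisation. The 2 libraries closer to another group were included: replicate 1 at E-L 36 had 724.9 CPM of LOXA and 71.6 CPM of LOXO in summer Victoria. In summer Muscat Superior it had 214.7 and 185.3 CPM. The correlations without these libraries were not computed. The tendency was not seen in every group, since replicate 3 of summer Victoria at E-L 38 was highest in LOXA (607.2 CPM) and in LOXO (166.2 CPM). Over the levels themselves, the correlation was 0.32 for LOXA with HPL1 and -0.54 for LOXA with LOXO. VIT_206s0004g01450 and VIT_206s0004g01480 had -0.71 over the levels and -0.43 over the deviations, at low counts.

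Among the other 19735 tested genes, those whose log2 CPM followed LOXO most closely over the 36 libraries were VIT_219s0014g02120 (Pearson r 0.938), VIT_218s0001g07320 (0.930) and VIT_216s0050g01250 (0.930). The first, at low levels, had group means from 0.403 CPM in winter to 4.98 CPM in summer Muscat Superior, both at E-L 36. VIT_218s0001g07320 ran from 6.88 CPM in winter Victoria at E-L 36 to 70.5 CPM in summer Victoria at E-L 35. Only VIT_216s0050g01250 had its extremes in the groups where LOXO was lowest and highest. It ran from 38.2 CPM in winter Victoria at E-L 38 to 251.0 CPM in summer Victoria at E-L 36. For LOXA they were VIT_204s0023g02810 (0.844), VIT_207s0005g01050 (0.752) and VIT_213s0019g04260 (0.728), each highest in winter Victoria at E-L 38 as LOXA was. For HPL1 they were VIT_209s0054g01410 (0.737), VIT_214s0066g00220 (0.672) and VIT_209s0070g00140 (0.663). The first of these is close to the floor, with a highest group mean of 1.65 CPM.

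Loci numbered near the members were counted as well. Beside LOXA, 7 other chromosome 6 loci were tested, and 2 to 4 of them were called between crops in a given cultivar and stage. Beside LOXO, 9 were tested and 2 to 5 called. Beside HPL1, 7 were tested and 1 to 4 called. Over all tested genes, 17.6% to 54.3% were called in these comparisons, so the counts do not set the neighbours apart.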

How the data were processed

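The 36 libraries of grape berry RNA form 12 groups of 3. Per the file headers, the authors deposited for each library expected counts (estimated reads per gene, with fractions where reads were shared), FPKM and a transcript length. Bowtie is named for alignment, with no version, per the submitters' processing notes. The series text names DESeq2. The counting program, genome build, annotation and strand setting: not given in the sources used here. Unlisted genes were entered as 0. Of 28119 identifiers, 0 matched the supplied RefSeq gene table (assembly ASM3070453v1).

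Expected counts were rounded and tested with edgeR 4.0.16 under R 4.3.3, by its robust quasi-likelihood F test with TMM normalisation and filterByExpr. A means model of the 12 groups was fitted to all 36 libraries (24 residual degrees of freedom, 19736 genes, common biological coefficient of variation 0.172), and p-values were Benjamini-Hochberg adjusted over all genes of a comparison. The procedure was tested on simulated data. The 25 comparisons cover crop, ripening step and cultivar, and differences of these effects. Groups follow the labels. P-values measure the spread between samples stated to be biological replicates. Since 8 winter pairs were near-identical yet above counting noise, they were kept apart, and summed as an alternative.

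The members and lists were chosen with earlier results of these data known. Every member was described whatever its values. The rule for other genes was the 3 with the highest Pearson correlation to LOXO, LOXA or HPL1, and, as counts, loci numbered within 50 of a member. No other genes of the pathway could be listed without gene names. Alternatives were DESeq2 1.42.0, its size factors in edgeR, no filter, limma 3.58.1 on log2(FPKM + 0.1) and log2(FPKM + 1), a replicate block, only the libraries compared, summed near-identical libraries, leaving out, together, the summer Victoria replicate 1 of the later stages, and leaving out each library.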

Additional observations from a re-analysis of the deposited data

Results flagged for a closer look

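Effects of the same kind differed between groups for 6 member values, each by a test of the difference itself (edgeR, adjusted over all tested genes). Every such comparison tested 5 members. The crop effect between cultivars gave 1, 0 and 0 called members by stage, where 18.1%, 18.7% and 16.8% of all genes were called. The ripening change between crops gave 3 called members for Victoria, where 42.8% of all genes were called. For Muscat Superior it gave 2, against 27.1% of all genes. These counts therefore do not set the members apart. For HPL1, the crop effect at E-L 35 in Muscat Superior minus that in Victoria was -1.08 ± 0.24 (SE, adjusted p = 0.00252). The change from E-L 35 to E-L 38 in winter minus that in summer was, in Victoria, -1.55 ± 0.24 for HPL1 (adjusted p = 8.55e-06), -1.71 ± 0.51 for LOXO (adjusted p = 0.00768) and -3.62 ± 0.99 for VIT_206s0004g01450 (adjusted p = 0.00406). In Muscat Superior it was -1.50 ± 0.51 for LOXO (adjusted p = 0.0277) and -1.72 ± 0.65 for VIT_206s0004g01480 (adjusted p = 0.048). All 6 are negative, so in these cases the winter course from veraison to harvest, or the Muscat Superior crop effect, lay below its counterpart. With each of 12 libraries left out in turn, the VIT_206s0004g01480 call was kept in 2 fits and that of LOXO in Muscat Superior in 7. The Victoria calls of LOXO and VIT_206s0004g01450 were kept in 11 fits each, and those of HPL1 in all 12. Summing near-identical libraries removed the call of the HPL1 crop effect and the calls of LOXO and VIT_206s0004g01480 in Muscat Superior. It left 1 library of winter Muscat Superior at E-L 35. Groups of 3 libraries are too small for a search for single outlying samples.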

How the results depend on the processing

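Of 40 called member values, 18 were called under every alternative that gave a value and with any library left out, 22 lost their call in at least 1 setting, and 0 changed sign. Of 13 uncalled member values followed across the settings, 11 were called in at least 1 alternative other than leaving out a single library. The 13 were chosen for the text, so this share does not describe uncalled values in general. The change of LOXA at the early step in summer Victoria, 0.015 and not called, was -0.42 on each FPKM scale (pseudocount 0.1 or 1), and -0.75 when replicate 1 was left out at both later stages. With any library left out it ran from -0.75 to 0.30, and its late counterpart from -0.016 to 1.04. On the FPKM scale, which has no correction for library composition, the median of all genes moved by -0.17 for the crop in Victoria at E-L 35, by -0.26 for the early step in summer Victoria, where HPL1 was 0.23 and not called, and by -0.27 between cultivars in summer at E-L 35, where HPL1 was 0.32 and not called. For the crop in Victoria at E-L 35 it gave 34.0% of calls higher in winter, against 51.7%.

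Counts of all called genes, which serve as background, moved more. Summing near-identical libraries gave 6220 in place of 10014 for the crop in Victoria at E-L 36, 527 in place of 3470 in Muscat Superior at E-L 35, and 4622 in place of 8522 and 268 in place of 3542 for the early and late steps in winter Victoria. It gave 2577 in place of 7225 and 3039 in place of 5006 for those of winter Muscat Superior, 2450 in place of 5936 and 2787 in place of 6908 between cultivars in winter at E-L 35 and E-L 36, 937, 999 and 2002 in place of 3566, 3686 and 3306 for the crop effect between cultivars by stage, and 2594 in place of 5339 for the ripening change between crops in Muscat Superior. Summing leaves 30 libraries. Winter Victoria at E-L 36 and winter Muscat Superior at E-L 35 then hold 1 library each. Winter Victoria at E-L 38 and winter Muscat Superior at E-L 36 hold 2 each. Fitting only the libraries compared gave 7939 for the crop in Muscat Superior at E-L 35, 5533 in place of 8410 at E-L 36, 2578 in place of 7501 between cultivars in summer at E-L 36, and 1982 for the crop effect between cultivars at E-L 36. The late step in summer Victoria called 46 genes, and 26 with no filter, 174 with DESeq2, 78 and 88 on the FPKM scales, 5 with libraries summed, 2950 without replicate 1 at both stages, and 0 with only the libraries compared (edgeR, 687 genes at an unadjusted p below 0.05). The late step in summer Muscat Superior called 511, and 880 with DESeq2, 805 and 827 on the FPKM scales, 3 with only the libraries compared, 85 with libraries summed and 1193 without those summer Victoria libraries. With 1 library left out, counts ran from 2313 to 2378 for the crop in Muscat Superior at E-L 35, 2 to 1473 and 55 to 1539 for the late step in summer Victoria and Muscat Superior, and 2976 to 4770 for the early step in summer Muscat Superior. The cause of these shifts was not tested.

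Replicate numbers did not pair the samples: in 0 of 20 comparisons did every same-numbered pair deviate together (r over 0.1). With the number as a block, 3 member calls were lost: LOXO in Victoria at E-L 35 (-0.90, adjusted p = 0.0501, edgeR), HPL1 in Victoria at E-L 36 (0.40, adjusted p = 0.0531, edgeR) and the ripening change of VIT_206s0004g01480 between crops in Muscat Superior (-1.65, adjusted p = 0.06, edgeR). With only the libraries compared, VIT_206s0004g01450 had too few counts for a value in 13 of 25 comparisons and VIT_206s0004g01480 in 8. Depth limits the smaller chromosome 6 loci, whose counts often lay near the floor of 3. The exception was VIT_206s0004g01480 in Muscat Superior, with 13 to 85 counts in a library.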
